A study of Arabidopsis thaliana with 35 samples.

Results

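The clock pseudo-response regulators *PRR9* (AT2G46790), *PRR7* (AT5G02810), *PRR5* (AT5G24470), *PRR3* (AT5G60100) and *TOC1* (AT5G61380, also named *PRR1*) were described in every library of the series. They were picked by locus, 5 of the 37898 genes in each table, and all 5 passed the filter on low values at both times of day. RNA-seq was done on whole seedlings of *Arabidopsis thaliana*, 12 days old, grown at 22 °C in cycles of 12 h light and 12 h dark. All lines are in the Columbia (Col-0) background: wild type (WT), the double mutant *cca1-1/lhy-20* (*cca1lhy*) and the double mutant *prr7-3/prr9-1* (*prr7prr9*). Seedlings stayed at 22 °C or were moved for 1 h to 37 °C (heat) or 10 °C (cold), either from lights on (ZT0, collected at ZT1) or from ZT5 (collected at ZT6), where ZT counts hours from lights on. At ZT1, WT and *cca1lhy* have 4 libraries in each group, except WT at 10 °C with 3. At ZT6, WT and *prr7prr9* have 2 libraries in each group. Each mutant is 1 combination of alleles, sampled at 1 time of day only, and both mutants carry their alleles in every tissue, so no group separates parts of the seedling. In these bulk samples, fewer cells of a type and less RNA per cell cannot be told apart.

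The pseudo-response regulators are transcriptional repressors of the plant circadian clock. They share a receiver-like domain that lacks the phosphate-accepting residue of true response regulators and a CCT domain through which they reach DNA. Their transcripts peak one after another from morning (*PRR9*, then *PRR7*) through afternoon (*PRR5*, *PRR3*) to evening (*TOC1*). PRR9, PRR7, PRR5 and TOC1 repress the MYB genes *CCA1* and *LHY*, and CCA1 and LHY in turn repress *PRR5*, *TOC1* and other evening genes. RVE8 with its LNK partners activates *PRR5* and *TOC1*, and the evening complex of ELF3, ELF4 and LUX represses *PRR9* and *PRR7*. PRR3 shields TOC1 protein from the F-box protein ZTL. *PRR7* and *PRR9* are known for their part in how the clock follows and buffers temperature.

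All values are deposited log2 CPM, and a difference of group means on that scale is a log2 fold change (LFC). The authors added 5 to each count before the logarithm, so an LFC understates the change of a gene with few reads. ZT1 libraries hold about 1020000 to 11000000 reads and ZT6 libraries about 12000000 to 29200000. The lowest value of the tables, which stands for 0 reads, is 1.23 at ZT1 and −1.68 at ZT6. The lowest and highest values differ between the tables of the times of day, which were therefore taken as normalized separately, so no level was compared and no test was made between them. At ZT6, 4 libraries stand apart from the other 8 with 27329 to 29244 genes above the lowest value against 24403 to 26018: WT 37 °C replicate 2, *prr7prr9* 22 °C replicate 3, *prr7prr9* 37 °C replicate 3 and *prr7prr9* 10 °C replicate 2. *CCA1* ranged from 2.03 to 5.29 in *cca1lhy* and from 8.26 to 9.64 in WT at ZT1, and the 5.29 belongs to *cca1lhy* 22 °C replicate 2, whose partners lay at 2.03 to 2.48. *LHY* was still read at 5.94 to 6.99 in *cca1lhy*, which overlaps WT (6.74 to 9.86) only when temperatures are pooled. Within each temperature the mutant lay below WT. *LHY* was at 5.94 to 6.88 in *cca1lhy* against 8.44 to 9.41 in WT at 22 °C. At 37 °C it was at 6.07 to 6.40 against 6.74 to 7.21, and at 10 °C at 6.60 to 6.99 against 9.47 to 9.86. All 4 listed heat response genes rose after heat in each genotype at both times. The 6 leaf markers summed to 14.3 to 16.2 over all libraries, the 6 root markers to 8.72 to 12.3, and the 4 pollen and anther markers lay at or near the lowest value. After heat at ZT1 5 of the 6 leaf markers fell in WT, where their sum lay at 14.6 to 15.1 against 16.1 to 16.2 at 22 °C, and the root marker sum lay at 9.19 to 9.53 against 10.8 to 11.8, with 1 of 6 called lower. In *cca1lhy* 4 leaf and 3 root markers fell after heat, and the sums lay at 14.9 to 15.2 against 15.8 to 16.1 (leaf) and 8.94 to 9.12 against 10.4 to 11.5 (root). At ZT6 the leaf sum was 14.3 to 14.4 against 15.02 to 15.7 in WT and 14.4 to 14.7 against 15.4 to 15.5 in *prr7prr9*, and limma called 0 of 6 in each, with 3 at an unadjusted p under 0.05. The root sum at ZT6 was 8.99 to 9.22 against 11.2 to 11.3 in WT (1 of 6 called lower) and 8.72 to 8.87 against 10.9 at 22 °C in *prr7prr9* (3 of 6 called lower). Of all genes, heat called 13.3% in WT and 12.7% in *cca1lhy* at ZT1, and 14.4% in WT and 14.1% in *prr7prr9* at ZT6. The part of the marker shift in the heat responses below was not tested.

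*PRR9* lies on chromosome 2 (19232607 to 19235179, + strand, TAIR10.1) and the other members on chromosome 5: *PRR7* at 637681 to 642030 (− strand), *PRR5* at 8356204 to 8358546 (− strand), *PRR3* at 24197971 to 24201415 (− strand) and *TOC1* at 24674963 to 24678550 (+ strand). The 500 bases before each annotated start were searched on both strands for motifs of factors that act on the clock or on temperature responses. These were the evening element AAAATATCT and the CCA1 binding site AAAAATCT (bound by MYB factors such as CCA1, LHY and RVE8), the G-box CACGTG (bHLH and bZIP factors), the CRT/DRE core CCGAC (CBF factors) and the heat shock element core GAANNTTC (heat shock factors). Of 27443 windows of protein-coding genes, 4.44% hold the evening element, 12.5% the CCA1 binding site, 9.35% the G-box, 21.4% the CRT/DRE core and 18.3% the heat shock element core. Every match in the 5 windows is shown here, since the motifs differ between members, with 10 flanking bases on each side. Sequences are written 5′ to 3′ on the gene's strand, from the RefSeq assembly TAIR10.1, with the motif or its reverse complement in capitals.
PRR9 CCA1 binding site, chr2:19232281-19232308, + strand, 316 bases before the start: gctgaaaaaaAAAAATCTaccttttaga
PRR9 G-box, chr2:19232353-19232378, + strand, 244 bases before the start: aatagaaaccCACGTGtcatccacat
PRR9 G-box, chr2:19232425-19232450, + strand, 172 bases before the start: aggttaatgaCACGTGttaaggtgga
PRR7 G-box, chr5:642216-642241, − strand, 201 bases before the start: cccaccattaCACGTGtcagttcaaa
PRR7 heat shock element core, chr5:642082-642109, − strand, 69 bases before the start: ggaacttctcGAACGTTCgggacctcta
PRR5 evening element, chr5:8358820-8358848, − strand, 292 bases before the start: caattctactAGATATTTTttcaaatcca
PRR5 evening element, chr5:8358715-8358743, − strand, 187 bases before the start: gattttttctAGATATTTTcttttctcca
PRR5 CCA1 binding site, chr5:8358727-8358754, − strand, 198 bases before the start: aacattcgctAGATTTTTtctagatatt
PRR5 CRT/DRE core, chr5:8358776-8358800, − strand, 244 bases before the start: ttagatcatgGTCGGttcgccaccc
TOC1 evening element, chr5:24674802-24674830, + strand, 151 bases before the start: aaatatcatgAGATATTTTctccaagatg

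*PRR5* and *TOC1* were the members with an evening element, *PRR9* and *PRR5* those with a CCA1 binding site, and *PRR9* and *PRR7* those with a G-box. The heat shock element core occurred before *PRR7* and the CRT/DRE core before *PRR5*. No motif of the set was found before *PRR3*. The annotated start of *PRR5* coincides with its coding start, so its window may hold transcribed bases. A match describes letters in a window and not a bound site.

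Part of *PRR9* has an exact copy elsewhere. Of the 2499 stretches of 75 bases (the read length) along *PRR9*, 740 occur again in the genome, 694 of them in AT2G46670, a gene on the same chromosome (19164357 to 19165233, − strand). They begin 1656 bases from the start of the gene, reach its end and cover 41.0% of its exon bases. No such stretch was found in *PRR7*, *PRR5*, *PRR3* or *TOC1*. Reads from the copied end cannot be assigned to *PRR9* or AT2G46670 by sequence, and how such reads were counted is not given in the sources used here. In the 11 WT and 12 *cca1lhy* libraries of ZT1 *PRR9* exceeded AT2G46670 by 0.94 to 2.11, and in the 6 WT libraries of ZT6 by 1.17 to 2.01. In the 6 *prr7prr9* libraries the difference was 3.43 to 6.39, and AT2G46670 lay at −1.20 and −0.83 at 22 °C, −1.10 and −0.75 at 37 °C and −0.98 and −1.62 at 10 °C (1 to 8 reads) in these libraries. AT2G46670 was lower than in WT at every temperature, with an LFC of −2.65 ± 0.32 (SE, adjusted p = 0.0087) at 22 °C, −5.71 ± 0.32 (SE, adjusted p = 0.00017) at 37 °C and −5.79 ± 0.32 (SE, adjusted p = 0.0003) at 10 °C. The level of *PRR9* is given with this limit throughout.

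**Figure D1:**
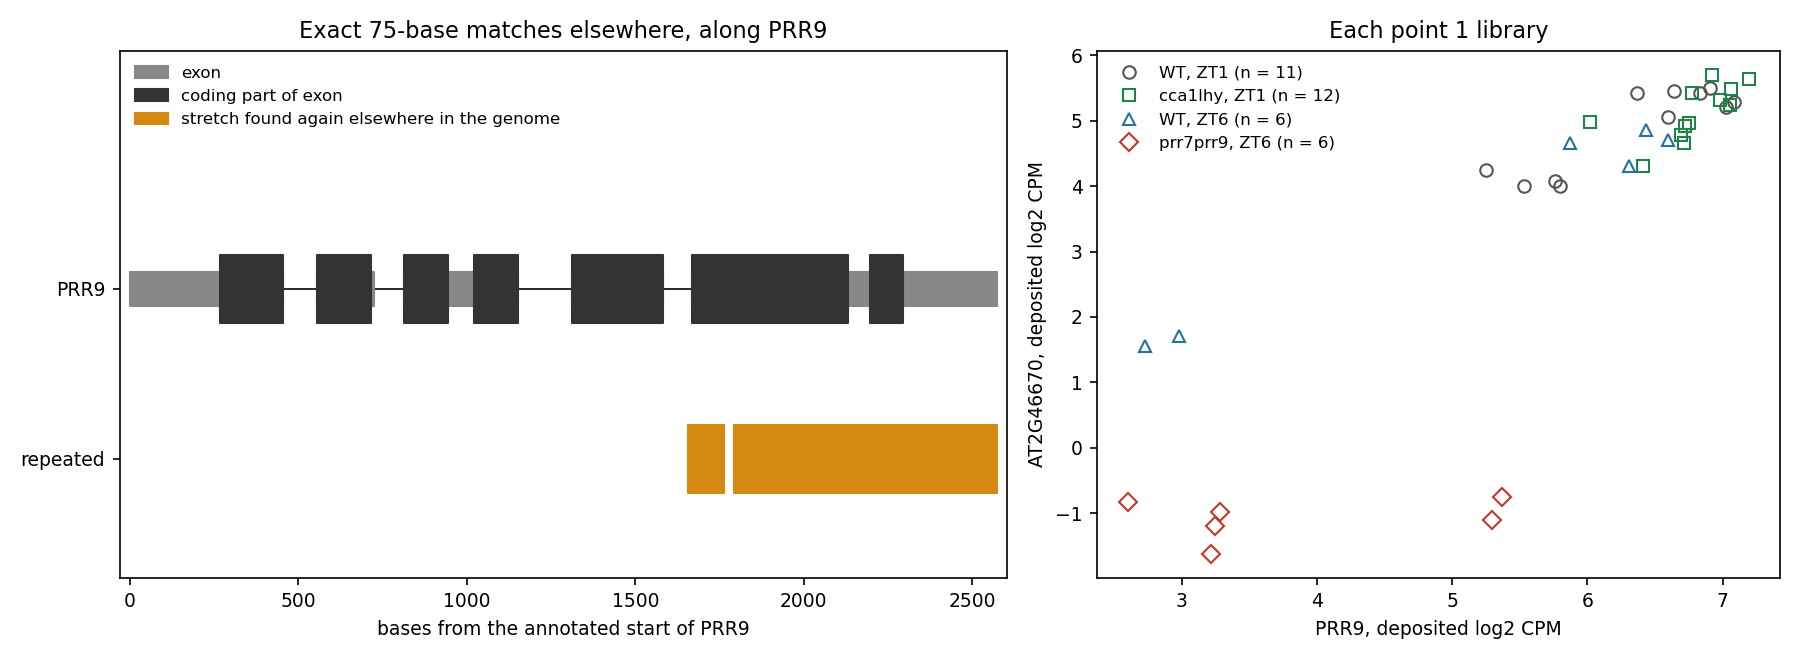
Left, exons of PRR9 (grey, coding parts dark) and the stretches found again elsewhere in the genome (orange) against bases from the annotated start. Right, AT2G46670 against PRR9 in deposited log2 CPM, 1 point per library; the 6 prr7prr9 libraries lie below 0 on the y axis while the other 29 lie above 1.5.

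*PRR9*, the morning member, rose in WT after both heat and cold at both times of day. At ZT1 the WT libraries read 5.76, 5.25, 5.53 and 5.79 at 22 °C, 6.83, 6.36, 6.91 and 7.08 at 37 °C and 6.64, 6.60 and 7.03 at 10 °C. Every heat and cold library lay above every library at 22 °C. *PRR9* rose by an LFC of 1.21 ± 0.17 (SE, adjusted p = 6.6e-06) after heat and of 1.17 ± 0.19 (SE, adjusted p = 0.00026) after cold. At ZT6 the WT libraries read 2.98 and 2.73 at 22 °C, 6.60 and 6.43 at 37 °C and 5.87 and 6.31 at 10 °C, again with no overlap. *PRR9* rose after heat by 3.66 ± 0.22 (SE, adjusted p = 7.7e-06), and *PRR9* rose after cold by 3.24 ± 0.22 (SE, adjusted p = 0.00012). Heat and cold moved *PRR9* in the same direction, at ZT1 by about 2.32-fold and 2.25-fold and at ZT6 by about 12.7-fold and 9.43-fold. The difference between the times was not tested.

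In *cca1lhy* at ZT1 the *PRR9* libraries read 6.72, 6.72, 6.41 and 6.02 at 22 °C, 7.06, 6.98, 7.05 and 6.78 at 37 °C and 6.92, 7.19, 6.69 and 6.75 at 10 °C. The mutant exceeded WT at 22 °C without overlap, by 0.88 ± 0.17 (SE, adjusted p = 0.0026), which is under the fold threshold and passed it without *cca1lhy* 22 °C replicate 4 (1.03, adjusted p = 0.00067). At 37 °C and 10 °C the genotypes overlapped, with differences of 0.17 (adjusted p = 0.63, 95% interval −0.19 to 0.53) and 0.13 (adjusted p = 1, 95% interval −0.25 to 0.52). Within *cca1lhy* the heat response was 0.50 ± 0.17 (SE, adjusted p = 0.031), under the fold threshold, and the cold response was 0.42 ± 0.17 (SE, adjusted p = 0.21). The response of the mutant less that of WT was −0.71 (adjusted p = 0.2, 95% interval −1.22 to −0.20) for heat and −0.75 (adjusted p = 0.84, 95% interval −1.28 to −0.22) for cold, and neither passed the test.

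In *prr7prr9* at ZT6 the *PRR9* locus read 3.25 and 2.60 at 22 °C, 5.30 and 5.37 at 37 °C and 3.28 and 3.21 at 10 °C. The mutant libraries overlapped WT at 22 °C and lay below both WT libraries at 37 °C and at 10 °C. The difference from WT was 0.07 ± 0.22 (SE, adjusted p = 1) at 22 °C, −1.18 ± 0.22 (SE, adjusted p = 0.14) at 37 °C and −2.84 ± 0.22 (SE, adjusted p = 0.0029) at 10 °C, where *PRR9* was lower in the mutant. *PRR9* rose after heat in the mutant by 2.41 ± 0.22 (SE, adjusted p = 0.0001), while the cold response was 0.32 (adjusted p = 0.55, 95% interval −0.18 to 0.83). The cold response of the mutant was smaller than that of WT, with an interaction of −2.91 ± 0.32 (SE, adjusted p = 0.015). That interaction lost its call without *prr7prr9* 10 °C replicate 1 (−2.95, adjusted p = 0.088) or replicate 2 (−2.88, adjusted p = 0.12), and without WT 22 °C replicate 3 (−2.79, adjusted p = 0.072) or WT 10 °C replicate 2 (−2.70, adjusted p = 0.07), with its size between −2.95 and −2.70.

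*PRR7*, which follows *PRR9* in the day, rose after heat and lay lower after cold. At ZT1 the WT libraries read 5.22, 4.50, 5.11 and 5.34 at 22 °C, 6.55, 6.38, 6.90 and 7.07 at 37 °C and 4.08, 3.78 and 3.85 at 10 °C, and the groups did not overlap. The LFC was 1.68 ± 0.19 (SE, adjusted p = 1.5e-07) for heat and −1.14 ± 0.20 (SE, adjusted p = 0.00088) for cold, so that *PRR7* was the member with opposite calls for heat and cold at ZT1. The cold call was lost when the groups compared were fitted alone (−1.14, adjusted p = 0.052). At ZT6 the WT libraries read 6.98 and 7.20 at 22 °C, 8.44 and 8.54 at 37 °C and 6.52 and 6.88 at 10 °C. *PRR7* rose after heat by 1.40 ± 0.27 (SE, adjusted p = 0.006), and the cold difference was −0.39 (adjusted p = 0.46, 95% interval −1.0 to 0.22).

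In *cca1lhy* *PRR7* was higher at ZT1 at all temperatures than in WT, and again highest at 37 °C and lowest at 10 °C. The *cca1lhy* libraries read 7.25, 6.74, 6.87 and 6.46 at 22 °C, 7.86, 7.69, 7.72 and 7.64 at 37 °C and 6.22, 5.94, 5.56 and 6.03 at 10 °C, above WT without overlap in each case. The difference from WT was 1.79 ± 0.19 (SE, adjusted p = 7.5e-07) at 22 °C, 1.00 ± 0.19 (SE, adjusted p = 0.0015) at 37 °C and 2.03 ± 0.20 (SE, adjusted p = 4.6e-07) at 10 °C. The call at 37 °C stands at the fold threshold of 1 and was lost without WT 37 °C replicate 1 (0.95, adjusted p = 0.0071), WT 37 °C replicate 2 (0.89, adjusted p = 0.0081) or *cca1lhy* 37 °C replicate 1 (0.96, adjusted p = 0.0069), and with library quality weights (0.99, adjusted p = 0.0043). Within the mutant the heat response was 0.90 ± 0.19 (SE, adjusted p = 0.00063) and the cold response −0.89 ± 0.19 (SE, adjusted p = 0.0035), both past the p threshold and under the fold threshold. They passed both thresholds without *cca1lhy* 22 °C replicate 1 (1.04, adjusted p = 0.00023, heat) and without *cca1lhy* 22 °C replicate 4 (−1.01, adjusted p = 0.0022, cold). The interaction was −0.78 (adjusted p = 0.19, 95% interval −1.34 to −0.23) for heat and 0.24 (adjusted p = 1, 95% interval −0.33 to 0.82) for cold.

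*PRR7* is a targeted gene of *prr7prr9*, and its level checks the labels. The *prr7prr9* libraries read 2.78 and 1.96 at 22 °C, 3.61 and 3.70 at 37 °C and 1.73 and 2.27 at 10 °C, against 6.52 to 8.54 in WT, and hold 71 to 166 reads of the locus each. *PRR7* was lower than in WT, with an LFC of −4.72 ± 0.27 (SE, adjusted p = 8.7e-05) at 22 °C, −4.83 ± 0.27 (SE, adjusted p = 0.00017) at 37 °C and −4.70 ± 0.27 (SE, adjusted p = 0.0003) at 10 °C. The remaining transcript also rose after heat, by 1.29 ± 0.27 (SE, adjusted p = 0.0095), with an interaction of −0.11 (adjusted p = 1, 95% interval −0.97 to 0.75). This heat call was lost without *prr7prr9* 22 °C replicate 3 (0.87, adjusted p = 0.055) and with only the groups compared (1.29, adjusted p = 0.12). The cold difference in the mutant was −0.37 (adjusted p = 0.58, 95% interval −0.98 to 0.24).

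*PRR5*, an afternoon member, was close to the lowest value in WT at ZT1 and 22 °C and showed the widest difference between *cca1lhy* and WT of the 5 members. The WT libraries read 2.28, 1.23, 1.81 and 1.82 at 22 °C, which stand for 0 to 10 reads, 3.22, 3.09, 3.67 and 3.53 at 37 °C (7 to 10 reads) and 3.78, 3.47 and 3.87 at 10 °C (22 to 132 reads). Summed over libraries this is about 1.62, 6.47 and 11.6 CPM from the reads alone. *PRR5* rose after heat by 1.59 ± 0.20 (SE, adjusted p = 7.2e-07) and after cold by 1.92 ± 0.21 (SE, adjusted p = 1.9e-06), with no overlap between the treated and the 22 °C libraries.

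In *cca1lhy* the *PRR5* libraries read 6.11, 5.63, 6.16 and 5.92 at 22 °C, 5.93, 5.82, 5.80 and 5.87 at 37 °C and 8.13, 7.90, 8.32 and 8.69 at 10 °C. All 12 mutant libraries lay above all 11 WT libraries. *PRR5* was higher than in WT by 4.17 ± 0.20 (SE, adjusted p = 9.5e-13) at 22 °C, 2.48 ± 0.20 (SE, adjusted p = 1.9e-08) at 37 °C and 4.55 ± 0.21 (SE, adjusted p = 7.6e-13) at 10 °C. The heat rise seen in WT was not seen in the mutant, where the response was −0.10 (adjusted p = 0.75, 95% interval −0.51 to 0.31). The interaction for heat was −1.69 ± 0.28 (SE, adjusted p = 0.0031), so the heat responses differed between the genotypes. The cold rise remained in the mutant, at 2.30 ± 0.20 (SE, adjusted p = 3.3e-08), and the interaction for cold was 0.38 (adjusted p = 1, 95% interval −0.22 to 0.98). Without *cca1lhy* 22 °C replicate 2, the library with more *CCA1* reads, the difference from WT at 22 °C was 4.28 (adjusted p = 3.4e-12) and the heat interaction −1.80 (adjusted p = 0.0027).

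At ZT6 the *PRR5* libraries of WT read 4.29 and 5.55 at 22 °C (replicates 2 and 3), 5.30 and 5.24 at 37 °C and 5.69 and 5.74 at 10 °C. The libraries at 22 °C lay far apart, and those at 37 °C lay between them. No WT response passed the test, with 0.35 (adjusted p = 0.49, 95% interval −0.36 to 1.07) for heat and 0.80 (adjusted p = 0.17, 95% interval 0.08 to 1.51) for cold. The cold value passed it without WT 22 °C replicate 3 (1.43, adjusted p = 0.0035). In *prr7prr9* the libraries read 3.24 and 3.13 at 22 °C, 5.48 and 5.65 at 37 °C and 5.56 and 5.78 at 10 °C, and *PRR5* rose after heat by 2.38 ± 0.32 (SE, adjusted p = 0.00085) and after cold by 2.49 ± 0.32 (SE, adjusted p = 0.0026). The difference from WT was −1.73 (adjusted p = 0.083, 95% interval −2.45 to −1.02) at 22 °C, where both mutant libraries lay below both WT libraries, 0.29 (adjusted p = 1, 95% interval −0.43 to 1.01) at 37 °C and −0.04 (adjusted p = 1, 95% interval −0.76 to 0.67) at 10 °C. The interactions, 2.02 (adjusted p = 0.94, 95% interval 1.01 to 3.04) for heat and 1.69 (adjusted p = 0.38, 95% interval 0.68 to 2.70) for cold, did not pass the test. These values depended on which WT 22 °C library was kept. Without replicate 2 the difference at 22 °C was −2.36, the heat interaction 2.66 and the cold interaction 2.32. Replicate 2 is the lower of the pair (4.29 against 5.55), so leaving out replicate 3 instead moves these values to smaller sizes. Which of the 2 libraries better stands for WT at 22 °C cannot be told from them.

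*PRR3*, which protects TOC1 protein, was hardly detected at ZT1 and fell after cold at ZT6. At ZT1 the WT libraries read 1.50, 1.84, 1.23 and 1.53 at 22 °C, 1.81, 1.82, 1.23 and 1.23 at 37 °C and 1.53, 1.72 and 1.50 at 10 °C, which stand for 0 to 6 reads a library. A temperature response in WT was not detectable at this depth, with −0.00 (adjusted p = 1, 95% interval −0.50 to 0.49) for heat and 0.06 (adjusted p = 1, 95% interval −0.47 to 0.59) for cold. The *cca1lhy* libraries read 2.77, 2.34, 2.67 and 2.91 at 22 °C (6 to 15 reads), 2.37, 2.55, 1.23 and 2.47 at 37 °C (0 to 4 reads) and 2.09, 2.15, 2.59 and 2.63 at 10 °C (7 to 26 reads). *PRR3* was higher in *cca1lhy* than in WT at 22 °C, by 1.15 ± 0.24 (SE, adjusted p = 0.0042), while the differences at 37 °C, 0.63 (adjusted p = 0.12, 95% interval 0.14 to 1.12), and at 10 °C, 0.78 (adjusted p = 0.13, 95% interval 0.25 to 1.31), did not pass the test. Within the mutant the responses were −0.52 (adjusted p = 0.1, 95% interval −1.01 to −0.03) for heat and −0.31 (adjusted p = 0.65, 95% interval −0.80 to 0.18) for cold. Summed over libraries, the reads alone gave *cca1lhy* about 4.48 CPM at 22 °C, 1.61 at 37 °C and 2.78 at 10 °C. In WT they gave about 0.50, 0.38 and 0.63 CPM in that order, so the deposited scale narrows these differences.

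At ZT6 the *PRR3* libraries of WT read 3.65 and 3.39 at 22 °C (210 to 212 reads), 2.30 and 2.46 at 37 °C (51 to 53 reads) and −0.28 and 0.37 at 10 °C (12 to 21 reads). The groups did not overlap. *PRR3* fell after cold, with an LFC of −3.47 ± 0.39 (SE, adjusted p = 0.00096), an 11.1-fold lower level on this scale, and the heat difference was −1.14 (adjusted p = 0.066, 95% interval −2.01 to −0.27). In *prr7prr9* the libraries read 3.39 and 3.06 at 22 °C, 2.91 and 3.03 at 37 °C and 0.84 and 2.04 at 10 °C, and *PRR3* fell after cold, with an LFC of −1.78 ± 0.39 (SE, adjusted p = 0.032). That call was lost without *prr7prr9* 22 °C replicate 2 (−1.61, adjusted p = 0.17) or replicate 3 (−1.95, adjusted p = 0.1), without *prr7prr9* 10 °C replicate 1 (−1.18, adjusted p = 0.19), with no filter on low values (−1.78, adjusted p = 0.076) and with the replicate block (−1.36, adjusted p = 0.068). The heat difference in the mutant was −0.25 (adjusted p = 0.72, 95% interval −1.12 to 0.62). Against WT the mutant differed by −0.30 (adjusted p = 1, 95% interval −1.17 to 0.57) at 22 °C, 0.59 (adjusted p = 0.97, 95% interval −0.28 to 1.46) at 37 °C and 1.39 (adjusted p = 0.24, 95% interval 0.52 to 2.26) at 10 °C. None of these passed the test, nor did the interactions (0.89 for heat, 1.69 for cold).

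*TOC1*, the evening member, had no heat difference past the test in any genotype or at either time, and its cold difference in WT had opposite signs at the times of day. At ZT1 the WT libraries read 3.80, 3.32, 2.95 and 3.61 at 22 °C, 3.53, 2.80, 3.33 and 3.73 at 37 °C and 4.08, 4.19 and 4.10 at 10 °C. The heat and 22 °C libraries overlapped, and the cold libraries lay above them. The LFC was −0.07 (adjusted p = 0.85, 95% interval −0.48 to 0.34) for heat and 0.71 (adjusted p = 0.067, 95% interval 0.26 to 1.15) for cold, neither past the test. The 37 °C libraries hold 5 to 11 reads of *TOC1* and those at 22 °C 6 to 48 reads. From the reads alone, summed over libraries, *TOC1* was at about 10.2 CPM at 22 °C, 6.47 at 37 °C and 16.1 at 10 °C, so that the heat value lay below the 22 °C value on this scale. The WT libraries hold about 1130000 to 1540000 reads at 37 °C, 1020000 to 3930000 at 22 °C and 1740000 to 10100000 at 10 °C, and the part of depth in these differences was not tested. In *cca1lhy* the libraries read 5.75, 5.49, 5.55 and 4.93 at 22 °C, 5.46, 5.45, 5.31 and 5.33 at 37 °C and 5.77, 5.53, 5.91 and 5.96 at 10 °C, all above every WT library. *TOC1* was higher than in WT by 2.02 ± 0.20 (SE, adjusted p = 3.3e-07) at 22 °C, 2.04 ± 0.20 (SE, adjusted p = 3.3e-07) at 37 °C and 1.67 ± 0.22 (SE, adjusted p = 2e-05) at 10 °C. Its responses within the mutant were −0.04 (adjusted p = 0.91, 95% interval −0.46 to 0.37) for heat and 0.36 (adjusted p = 0.43, 95% interval −0.05 to 0.77) for cold, and the interactions 0.02 (adjusted p = 0.99, 95% interval −0.56 to 0.61) and −0.35 (adjusted p = 1, 95% interval −0.95 to 0.26).

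At ZT6 the *TOC1* libraries of WT read 4.82 and 5.73 at 22 °C (replicates 2 and 3), 5.21 and 5.22 at 37 °C and 3.71 and 4.22 at 10 °C. Both cold libraries lay below both libraries at 22 °C, and the heat libraries lay between the latter. *TOC1* fell after cold, with an LFC of −1.31 ± 0.29 (SE, adjusted p = 0.023), and the heat difference was −0.06 (adjusted p = 0.96, 95% interval −0.71 to 0.59). The cold call was lost without WT 22 °C replicate 3 (−0.85, adjusted p = 0.095) or WT 10 °C replicate 1 (−1.05, adjusted p = 0.13). It was also lost with the replicate block (−0.92, adjusted p = 0.094), with no filter on low values (−1.31, adjusted p = 0.063) and with only the groups compared (−1.31, adjusted p = 0.32). In *prr7prr9* the libraries read 3.90 and 4.14 at 22 °C, 4.06 and 4.13 at 37 °C and 3.98 and 4.39 at 10 °C, with responses of 0.08 (adjusted p = 0.91, 95% interval −0.57 to 0.73) to heat and 0.17 (adjusted p = 0.89, 95% interval −0.48 to 0.82) to cold. The mutant lay below WT without overlap at 22 °C, with −1.26 (adjusted p = 0.21, 95% interval −1.91 to −0.61), and at 37 °C, with −1.12 (adjusted p = 0.39, 95% interval −1.77 to −0.47), but neither difference passed the test, and at 10 °C the difference was 0.22 (adjusted p = 0.91, 95% interval −0.43 to 0.87). Without WT 22 °C replicate 2 the difference at 22 °C was −1.71 (adjusted p = 0.05) when rounded, which passed. The interactions were 0.14 (adjusted p = 1, 95% interval −0.78 to 1.05) for heat and 1.47 (adjusted p = 0.41, 95% interval 0.56 to 2.39) for cold.

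**Figure D2:**
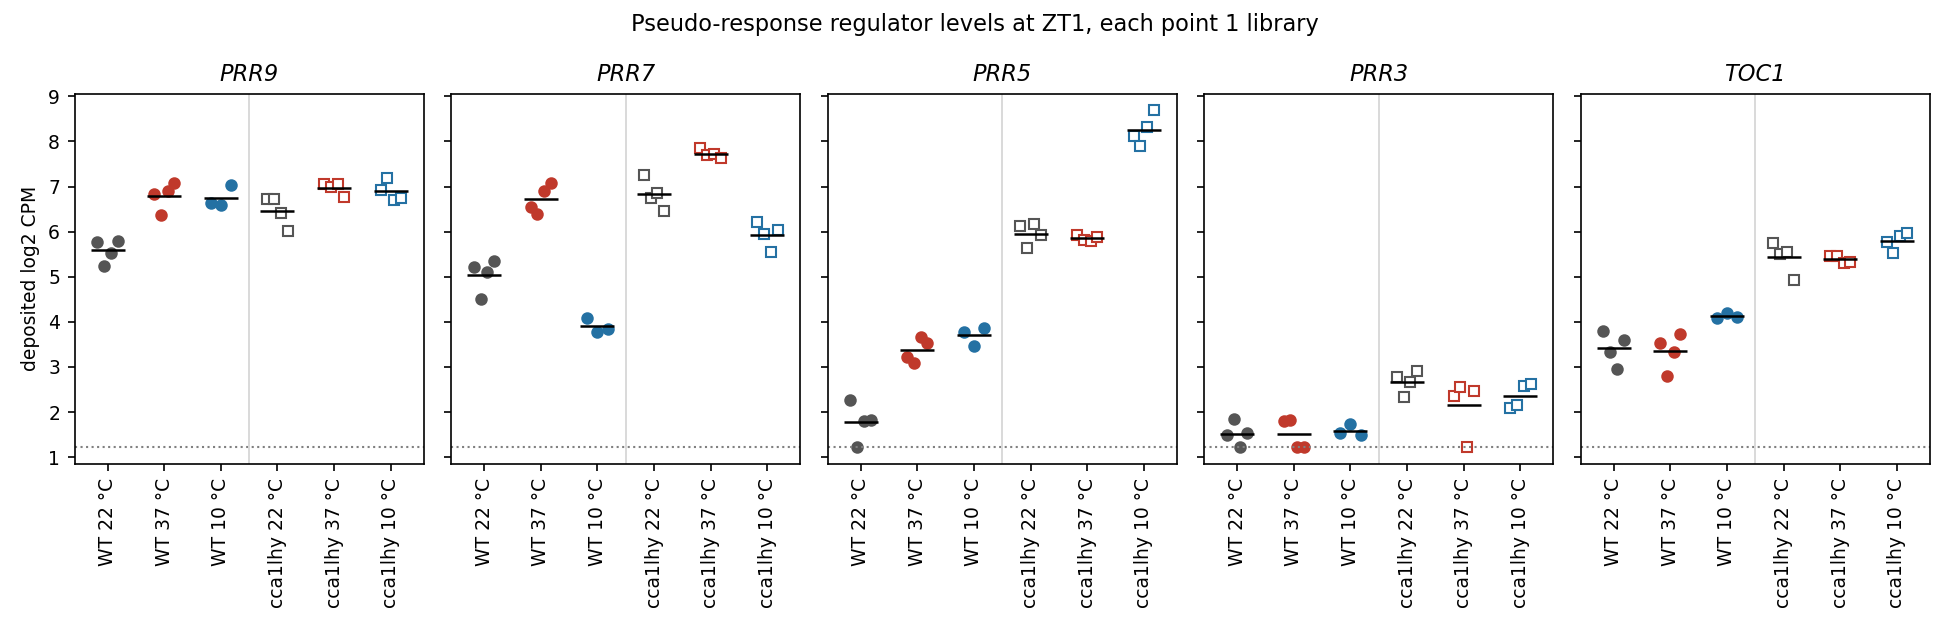
Deposited log2 CPM (y axis) of the 5 members at ZT1, 1 point per library, for WT (filled) and cca1lhy (open) at 22 °C, 37 °C and 10 °C (x axis), with group means as bars and the lowest value of the table dotted. PRR5 lies at 1.23 to 2.28 in WT at 22 °C and at 7.90 to 8.69 in cca1lhy at 10 °C, and PRR3 stays near the lowest value in WT.

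**Figure D3:**
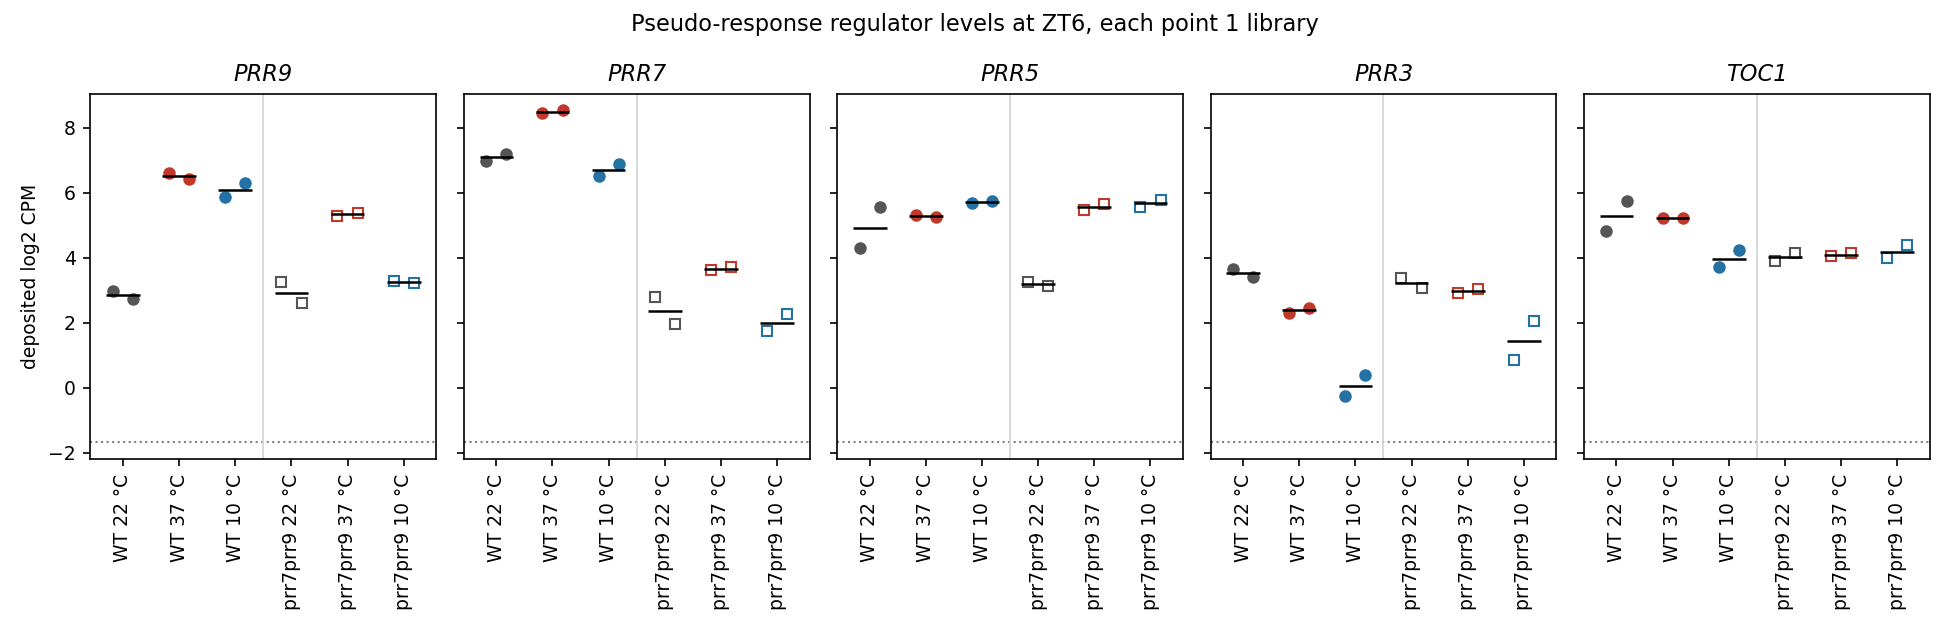
The same for ZT6, with WT (filled) and prr7prr9 (open), 2 libraries per group. PRR7 lies at 1.73 to 3.70 in prr7prr9 against 6.52 to 8.54 in WT, and PRR9 in WT lies at 2.73 to 2.98 at 22 °C against 5.87 to 6.60 after heat or cold.

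Counted over the members, calls were made at an adjusted p under 0.05 over all genes tested and an absolute LFC over 1. In WT at ZT1, 3 of 5 members rose after heat (*PRR9*, *PRR7* and *PRR5*), where 13.3% of the 25727 genes tested were called (6.97% higher). After cold at ZT1 *PRR9* and *PRR5* rose and *PRR7* fell, 3 of 5 against 1.87% of all genes (1.03% higher, 0.84% lower). In *cca1lhy* 0 of 5 were called for heat, against 12.7% of genes, with *PRR9* and *PRR7* past the limma p threshold alone and 3 members (these and *PRR3*) at an unadjusted p under 0.05. For cold in *cca1lhy* 1 of 5 was called (*PRR5*), against 2.15% of genes (0.983% higher). The heat interaction was called for 1 of 5 members (*PRR5*), where 0.913% of genes passed at an adjusted p under 0.05 with no fold threshold (0.529% lower). The cold interaction was called for 0 of 5 by limma, where 0.0117% of genes passed and 1 member, *PRR9*, had an unadjusted p under 0.05.

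At ZT6 in WT, *PRR9* and *PRR7* rose after heat, 2 of 5 members against 14.4% of the 31135 genes tested (7.25% higher). After cold *PRR9* rose and *PRR3* and *TOC1* fell, 3 of 5 against 5.94% (3.94% higher, 2% lower). In *prr7prr9* 3 of 5 rose after heat (*PRR9*, *PRR7* and *PRR5*), against 14.1% (6.66% higher), and after cold *PRR5* rose and *PRR3* fell, 2 of 5 against 3.6% (2.19% higher, 1.42% lower). The heat interaction was called for 0 of 5 members by limma (0.00321% of genes), with *PRR9* and *PRR5* at an unadjusted p under 0.05, and the cold interaction for 1 of 5 (*PRR9*, lower, against 0.0835% of genes, 0.0546% lower). The responses of WT at the times of day have not been tested against each other.

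**Figure D4:**
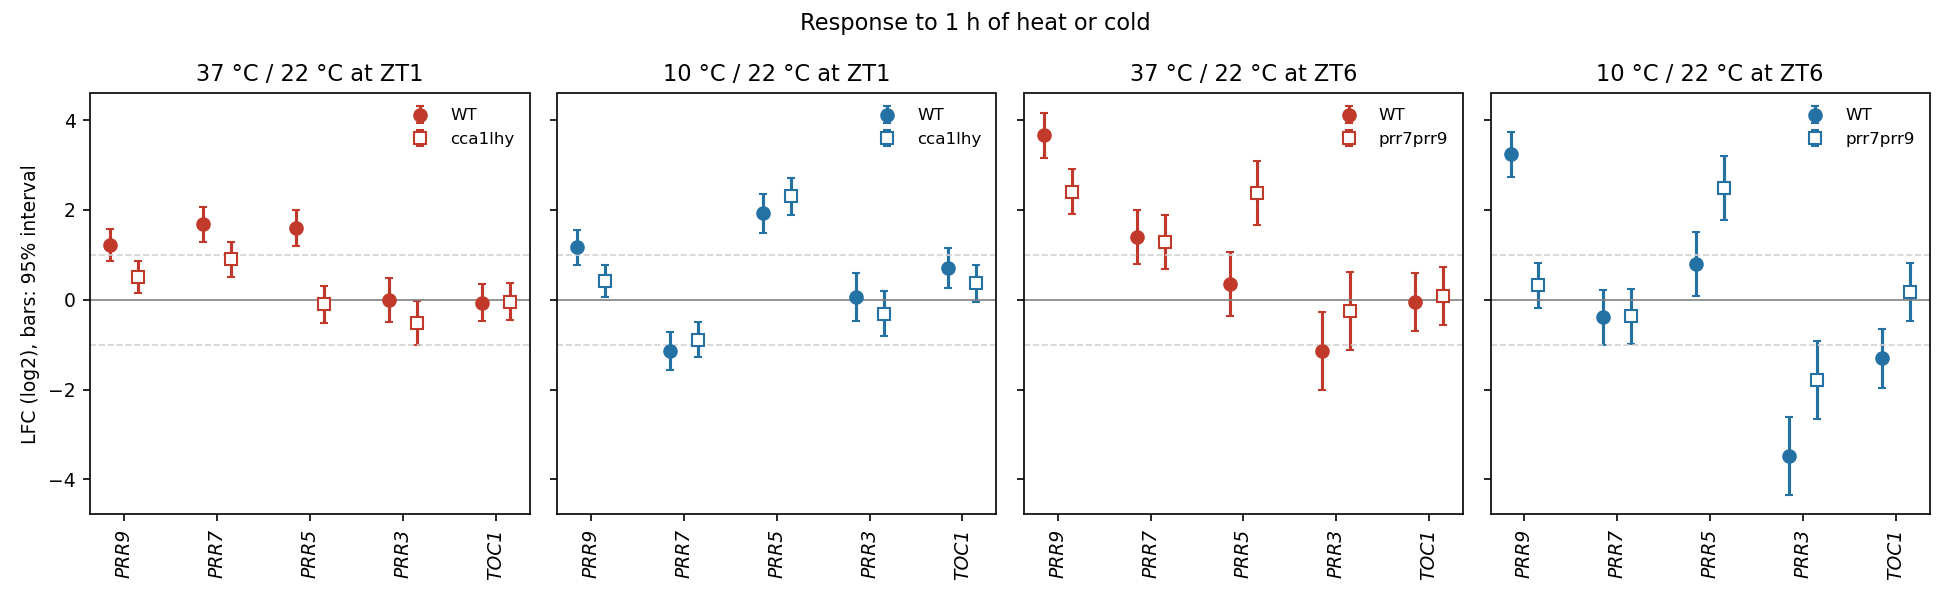
LFC (y axis, log2) of each member after heat (red) or cold (blue) against 22 °C at ZT1 and ZT6, in WT (filled) and the mutant sampled at that time (open), with 95% intervals; dashed lines mark an LFC of 1 and −1. At 37 °C and ZT1 PRR5 lies at 1.59 in WT and at −0.10 in cca1lhy, and at 10 °C and ZT6 PRR9 lies at 3.24 in WT and at 0.32 in prr7prr9.

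Against WT, *cca1lhy* had 4 of 5 members higher at 22 °C (*PRR7*, *PRR5*, *PRR3* and *TOC1*), where 1.72% of genes were called (1.33% higher). At 37 °C it had 3 higher (*PRR7*, *PRR5* and *TOC1*) against 2.13% of genes (1.31% higher), and at 10 °C the same 3 against 1.57% (1.12% higher). No member had a negative difference in *cca1lhy* at any temperature. Without *cca1lhy* 22 °C replicate 2 the differences at 22 °C were 1.82 (adjusted p = 4e-06) for *PRR7*, 1.26 (adjusted p = 0.0044) for *PRR3* and 2.00 (adjusted p = 2.6e-06) for *TOC1*. In *prr7prr9* 1 of 5 members differed from WT at 22 °C (*PRR7*, lower, against 0.286% of genes, 0.0707% lower) and 1 of 5 at 37 °C (*PRR7*, lower, against 0.145%, 0.0385% lower). At 10 °C *PRR7* and *PRR9* were lower, 2 of 5 against 0.141% (0.0739% lower). The mutated genes themselves are these called members, and no call was made for *PRR5*, *PRR3* or *TOC1* in *prr7prr9*.

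**Figure D5:**
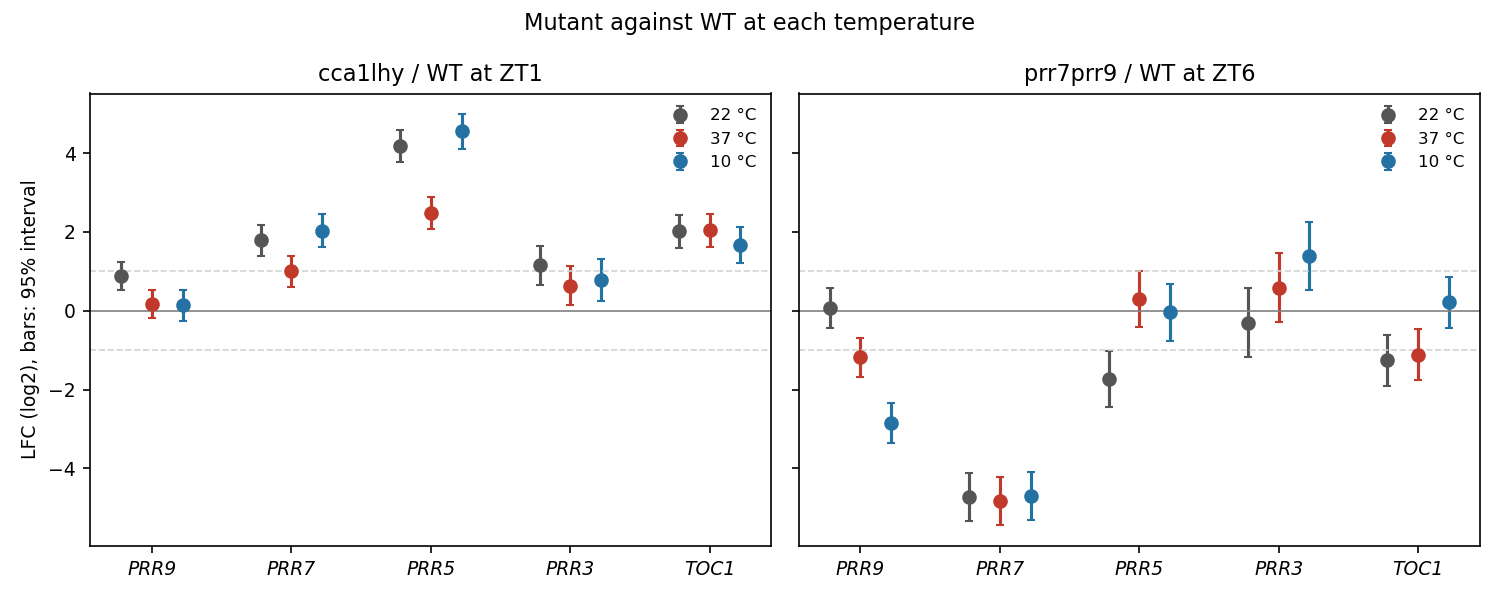
LFC (y axis, log2) of each member in cca1lhy against WT at ZT1 and in prr7prr9 against WT at ZT6, at 22 °C (grey), 37 °C (red) and 10 °C (blue), with 95% intervals; dashed lines mark an LFC of 1 and −1. PRR5 in cca1lhy lies at 4.17, 2.48 and 4.55, and PRR7 in prr7prr9 at −4.72, −4.83 and −4.70.

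The ZT6 calls rest on all 6 groups sharing 1 estimate of spread and in part on the 4 libraries that stand apart. With only the groups compared, 12 of the 15 calls at ZT6 were lost, with adjusted p from 0.055 to 0.32 by limma. Without the 4 libraries, *prr7prr9* keeps 1 library at each temperature and WT 1 at 37 °C, with 2 residual degrees of freedom in place of 6, so the lone libraries were assumed to vary like the WT pairs. All 15 called results at ZT6 kept their direction, with the WT heat rise of *PRR9* at 3.58. That outcome was fixed in advance, since the libraries of every called pair of groups did not overlap. For the *PRR9* cold interaction, every WT pairing of cold and 22 °C libraries showed a larger rise than every mutant pairing. The kept directions therefore tell nothing about how firm the calls are. None of the 4 libraries is in WT at 22 °C or 10 °C. The WT cold values of *PRR9* (3.24), *PRR3* (−3.47) and *TOC1* (−1.31) therefore could not change in size either. The widest shifts were in *PRR3* after cold in *prr7prr9*, from −1.78 to −2.55 (adjusted p = 0.52), and in *PRR7* after heat in *prr7prr9*, from 1.29 to 0.83 (adjusted p = 0.23). The *PRR9* cold interaction was −3.20 (adjusted p = 0.88) without them. *PRR7* in *prr7prr9* against WT was then −4.31 (adjusted p = 0.4) at 22 °C, −4.93 (adjusted p = 0.65) at 37 °C and −4.97 (adjusted p = 0.35) at 10 °C.

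Set in order over the 6 groups of a time, the members differed in whether genotype or temperature parted the groups. For *PRR5* and *TOC1* at ZT1, each *cca1lhy* group lay above each WT group, and within *cca1lhy* the 22 °C and 37 °C groups overlapped. The *cca1lhy* 10 °C group stood clear above them for *PRR5* and overlapped *cca1lhy* 22 °C for *TOC1*. For *PRR7* at ZT1 the order was *cca1lhy* 37 °C (7.73 ± 0.09, mean and SD), *cca1lhy* 22 °C (6.83 ± 0.33), WT 37 °C (6.73 ± 0.32), *cca1lhy* 10 °C (5.94 ± 0.28), WT 22 °C (5.04 ± 0.37) and WT 10 °C (3.90 ± 0.16), in which *cca1lhy* 22 °C and WT 37 °C overlapped. For *PRR9* at ZT1 the top 5 groups, from 6.97 ± 0.13 to 6.47 ± 0.33, each overlapped the next, and only WT at 22 °C (5.58 ± 0.25) stood clear. For *PRR3* at ZT1 every neighbour overlapped. At ZT6 *PRR9* ran from WT 37 °C (6.52 ± 0.12, n = 2) through WT 10 °C (6.09 ± 0.31) and *prr7prr9* 37 °C (5.33 ± 0.05) to *prr7prr9* 10 °C, *prr7prr9* 22 °C and WT 22 °C, which overlapped in that order. *PRR3* at ZT6 ran from WT 22 °C (3.52 ± 0.19) to WT 10 °C (0.05 ± 0.46) with no overlap between neighbours, both genotypes in the order 22 °C, 37 °C, 10 °C. The *TOC1* groups at ZT6 fell into WT at 22 °C and 37 °C, which overlapped, and the 4 others, which overlapped from one to the next.

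Compared per length, as log2 CPM less log2 of the exon length in kilobases, the WT levels at 22 °C at ZT1 were *PRR9* 4.49, *PRR7* 3.35, *TOC1* 1.93, *PRR5* 1.04 and *PRR3* 0.04, where the last pair is near the lowest value. At ZT6 the per-length levels were *PRR7* 5.40, *PRR5* 4.17, *TOC1* 3.79, *PRR3* 2.03 and *PRR9* 1.76. The place of *PRR9* in these orders depends on how reads of its copied end were counted, since all its exon bases were used as its length and 41.0% of them lie in the copy. After cold at ZT1 in *cca1lhy* *PRR5* led, with a per-length level of 7.51 against 5.79 for *PRR9*. After heat at ZT6 in WT *PRR7* (6.80) and *PRR9* (5.42) led. The annotated *PRR5* model has no untranslated exon bases, and its length is counted as annotated.

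Over the 23 ZT1 libraries, which share their groups and normalization, *PRR5* and *TOC1* were the most alike pair of members (Pearson r = 0.92), followed by *PRR3* and *TOC1* (0.74) and *PRR5* and *PRR3* (0.68). *PRR9* and *PRR7* had r = 0.43. Over the 6 WT libraries of ZT6 the same pairs had r of −0.25 (*PRR5* and *TOC1*), 0.86 (*PRR3* and *TOC1*), −0.69 (*PRR5* and *PRR3*) and 0.41 (*PRR9* and *PRR7*). The sets differ, since the 23 ZT1 libraries hold WT and *cca1lhy* and the 6 ZT6 libraries hold WT alone. At ZT1 every *cca1lhy* library lay above every WT library for *PRR5* and *TOC1*. No r was computed over WT alone at ZT1. Time of day and the set of libraries cannot be told apart in these r values or in those below. Among all genes tested at both times, those most like *PRR5* were *MEE14* (AT2G15890, r = 0.96), the evening complex gene *PCL1* (AT3G46640, also *LUX*, 0.96) and *ABF1* (AT1G49720, 0.95). Over the 6 WT libraries of ZT6 the same genes had r of −0.71, −0.57 and −0.02 with *PRR5*. Most like *TOC1* were *RPP4* (AT4G16860, 0.96), AT1G14640 (0.96) and AT1G26580 (0.96), with −0.24, 0.58 and 0.80 at ZT6. For *PRR7* they were *PDC2* (AT5G54960, 0.93), *RLP49* (AT4G13900, 0.93) and *ALMT9* (AT3G18440, 0.92), with 0.92, 0.18 and 0.54 at ZT6. For *PRR9* they were AT5G16880 (0.92), AT4G21450 (0.87) and AT3G59350 (0.86), with 0.38, 0.27 and −0.16. For *PRR3*, whose ZT1 values are near the lowest, they were AT1G69140 (0.85), AT4G06105 (0.84) and *EARLI1* (AT4G12480, 0.84), with −0.07, −0.54 and 0.14. These correlations describe the libraries, which differ by group, and were not tested.

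Genes that act on the *PRR* genes moved with genotype and temperature as well. Of 15 listed upstream regulators, all tested, *cca1lhy* against WT at 22 °C had 3 higher and 2 lower (list median 0.16, all genes 0.00). *CCA1* (−5.56) and *LHY* (−2.59), the mutated repressors, were the lower ones, and the evening complex genes *ELF4* (2.5), *LUX* (1.21) and *ELF3* (1.1) the higher ones. At 37 °C 4 were higher and 1 lower (list median 0.08), and at 10 °C 4 higher and 2 lower (0.10). After heat at ZT1 in WT *LHY* (−1.92) and the coactivator gene *LNK2* (−1.53) fell, and the evening complex genes *BOA* (1.26) and *ELF3* (1.03) rose (list median 0.32, all genes −0.06). After cold *LNK3* (1.37), *ELF3* (1.3) and the MYB activator *RVE4* (1.27) rose and *LNK1* (−1.21) fell (list median 0.67, all genes 0.01). The heat interaction was called for 1 of the 15, *LHY* (1.77), and the cold interaction for 0 by limma, with 1 at an unadjusted p under 0.05. Of all genes, 13.3% were called for WT heat, 1.87% for WT cold, 0.913% for the heat interaction and 0.0117% for the cold interaction. Between *cca1lhy* and WT 1.72%, 2.13% and 1.57% of all genes were called at 22, 37 and 10 °C.

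At ZT6 the list was counted in WT and *prr7prr9*. After cold in WT 8 of 15 rose and 5 fell (list median 1.32, all genes 0.00), with *CCA1* (3.84), *RVE8* (3.37) and *LHY* (2.90) among those that rose and *COR27* (−3.53) among those that fell. After heat 5 rose and 3 fell (list median 0.68), *CCA1* (3.27), *LNK1* (2.27) and *BOA* (1.78) up and *ELF4* (−1.95) down. In *prr7prr9* at 22 °C 7 were higher than in WT and 4 lower (list median 0.71, all genes 0.01), with *LHY* (5.10), *CCA1* (4.51), *RVE8* (3.90) and *LNK3* (3.48) the widest, all higher. At 37 °C 4 were higher and 1 lower, and at 10 °C *COR27* (2.24) was the 1 gene called. The cold interaction was called for 5 of the 15: *COR27* (4.44) and *COR28* (3.29) up and *CCA1* (−3.59), *LNK3* (−3.07) and *RVE8* (−2.76) down. Of all genes, 5.94% were called for WT cold, 14.4% for WT heat and 0.0835% for the cold interaction. Between *prr7prr9* and WT 0.286%, 0.145% and 0.141% of all genes were called at 22, 37 and 10 °C. The *CCA1* libraries at ZT6 read 3.41 and 2.83 in WT at 22 °C, 6.97 and 6.95 in WT at 10 °C, 7.50 and 7.75 in *prr7prr9* at 22 °C and 7.78 and 7.98 in *prr7prr9* at 10 °C, so that, like *PRR9*, *CCA1* had a cold rise in WT (3.84) that was not called in the mutant (0.25).

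Of 12 listed genes for turnover and partners of PRR proteins, *cca1lhy* against WT had 3 higher at 22 °C (list median 0.04, 1.72% of all genes called), 2 at 37 °C (0.19, 2.13%) and 3 at 10 °C (−0.05, 1.57%), and 0 lower. The F-box gene *FKF1* (4.45 at 22 °C, 2.36 at 37 °C and 5.96 at 10 °C) and *GI* (1.94, 1.18 and 2.31), which works with ZTL and FKF1, were higher at each temperature. The *FKF1* heat interaction at ZT1 was −2.09. *CHE* was higher at 22 °C (1.54) and 10 °C (1.24). In WT, heat at ZT1 lowered the corepressor genes *TPR1* (−1.09), *TPR2* (−1.08) and *TPR3* (−1.07), 3 of 12 (list median −0.32, all genes −0.06), and cold lowered 1 of 12, *GI* (−1.37, with a list median of 0.15). The share of all genes called was 13.3% for heat and 1.87% for cold. At ZT6 heat raised *LKP2* (1.18) and *ZTL* (1.05), whose product marks TOC1 and PRR5 for degradation, and lowered *FKF1* (−1.61), 3 of 12 against 14.4% of all genes (list median −0.10), while cold gave 0 calls of 12 by limma against 5.94% (list median −0.20), with 4 at an unadjusted p under 0.05. In *prr7prr9* *FKF1* was lower than in WT at 22 °C (−3.16), the 1 call of 12 (list median 0.06, 0.286% of all genes called). At 37 °C and 10 °C limma called 0 of 12, with 1 and 0 at an unadjusted p under 0.05.

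Several genes that PRR proteins repress rose after cold and heat in WT. Of 13 listed, all tested, 10 rose and 0 fell after cold at ZT1 (list median 1.92, all genes 0.01), led by the cold regulators *CBF2* (4.30) and *CBF3* (3.39), the MYB gene *RVE2* (4.03) and the flowering repressor *CDF6* (3.56). After heat at ZT1 4 rose (list median 0.80, all genes −0.06): *RVE7* (2.25), *PIF4* (1.95), *RVE2* (1.74) and *CDF1* (1.44). At ZT6 7 rose after cold (list median 1.38) and 6 after heat (0.70), with 0 lower in each, led by *CBF3* (5.67) for cold and *RVE7* (3.35) for heat. Of all genes, 1.03% were called higher after cold and 6.97% after heat in WT at ZT1, and 3.94% and 7.25% at ZT6. In *prr7prr9* 4 of 13 were higher than in WT at 22 °C and 0 lower (list median 1.12, all genes 0.01): *RVE1* (3.72), *RVE2* (2.48), *CDF2* (2.08) and *CDF3* (1.47). At 37 °C *CBF3* (2.61) and *RVE1* (2.40) were higher, and at 10 °C 0 of 13 were called by limma (list median 0.43), with 4 at an unadjusted p under 0.05. In *cca1lhy* 2 were higher than in WT at 22 °C. At 37 °C limma called 0, with 4 at an unadjusted p under 0.05, and at 10 °C 4 were higher and 2 lower, among them *CDF6* (−2.66). Between *prr7prr9* and WT 0.286%, 0.145% and 0.141% of all genes were called at 22, 37 and 10 °C. Between *cca1lhy* and WT the shares were 1.72%, 2.13% and 1.57%. The pseudo-response regulators outside the clock had 1 gene called, *APRR8*, which rose after heat in WT (1.88 at ZT1, 2.38 at ZT6), in *cca1lhy* (2.24) and in *prr7prr9* (2.32). The rest of this list (2 of 4 genes tested at ZT1, 4 of 4 at ZT6) was not called. Of 6 reference genes 1 was called lower after heat at ZT1 in each genotype, and limma called 0 in WT after heat at ZT6, with 2 at an unadjusted p under 0.05.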

How the data were processed

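RNA-seq (single-end, 75 bases) was analysed from 35 libraries in 12 groups, given by the labels. The deposited values are log2 CPM: per the paper's methods, the authors trimmed with cutadapt, aligned with TopHat2 (version 2.0.14, on top of Bowtie2 version 2.2.5), counted reads over exons (TAIR10, Araport11 release 201606), added 5 to each count, scaled libraries with calcNormFactors of edgeR and applied quantile normalization with voom. Each time of day has a table of its own with a lowest and highest value of its own, so the tables were taken as normalized separately. ZT1 and ZT6 were also run on different flowcells (664 and 796), so time of day and run cannot be told apart. Deposited columns of the authors' own fold changes, FDR and group means were not used. The ZT6 columns carry replicate numbers (2 and 3 at 22 °C and 37 °C, 1 and 2 at 10 °C) that differ from the numbers 1 and 2 of the labels, so they were mapped to groups and are named by those numbers.

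Values were fitted by limma 3.58.1 (R 4.3.3) on the deposited log2 scale, with all 6 groups of a time in 1 model and a mean-variance trend, and a gene was tested if 3 (ZT1) or 2 (ZT6) or more libraries exceeded the table's lowest value. Adjusted p values are Benjamini-Hochberg over all genes tested. A gene was called where its LFC exceeded 1 in size and its adjusted p was below 0.05. An interaction (mutant response less WT response) needed the p alone. The study calls its ZT1 libraries biological replicates and its ZT6 libraries replicates, so p values measure the spread between these samples, which at ZT6 may be technical. Reads per gene and depth were recovered from the steps between the low values of each library and are approximate. A level read at 0 reads was not detectable at that depth.

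The 5 members were named in every group, and up to 4 called genes by absolute LFC from each of the lists (70 genes in all), with *CCA1* and *LHY*. Members and lists were chosen with earlier results of these data known. For likeness, the 3 genes with the highest r per member were named. Exact copies of 75 bases and motifs were searched in the RefSeq assembly TAIR10.1, in which 37751 of the 37898 gene IDs were found. Python 3.11.15 with pandas 2.3.3, NumPy 2.4.6 and Matplotlib 3.10.9 was used, and the fits were tested on simulated data.

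Replicate numbers are shared between groups. At ZT1, deviations from the group means correlated above 0.1 in all same-numbered pairs only for WT at 10 °C against 22 °C (3 pairs, 0.101 to 0.242). There a replicate block left the 3 member calls in place (526 genes called in place of 482). Each ZT6 group is a pair of libraries, whose deviations from their mean are mirror images. Same-numbered pairs of the same groups therefore repeat the same value, which is no further check. This value was above 0.1 for heat in WT (0.216) and in *prr7prr9* (0.196). The same held for *prr7prr9* against WT at 22 °C (0.198) and 10 °C (0.298), but not at 37 °C (−0.398). The same-numbered pair for cold at ZT6 was at 0.137 in WT and −0.050 in *prr7prr9*. The main fit holds no replicate block. Alternatives were no trend, no filter, only the groups compared, a replicate block, median centring, library quality weights, other fold thresholds and leaving out each library. Leaving out the 4 ZT6 libraries that stand apart and a crossed pairing were added after seeing the data.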

Additional observations from a re-analysis of the deposited data

Results flagged for a closer look

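*PRR3* in *cca1lhy* 37 °C replicate 3 was 1.23, the lowest value of the table (0 reads), against 2.37 to 2.55 in the other 3 libraries of the group, a gap of 0.863 of the whole range. For normally spread values, chance alone gives such a gap in about 1 in 20 groups of 4, and 25 groups were examined. The values here stand for 0 to 4 reads, where 1 read makes a wide step, so that rate may not hold.

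The heat response of *PRR5* at ZT1 differed between *cca1lhy* and WT by an interaction of −1.69 (adjusted p = 0.0031, limma), with WT rising from a level of few reads.

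The cold response of *PRR9* at ZT6 differed between *prr7prr9* and WT by an interaction of −2.91 (adjusted p = 0.015, limma), in 2 libraries a group and in a mutant of this gene.

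*TOC1* in WT after cold was 0.71 higher at ZT1 and changed by −1.31 at ZT6. All 3 cold libraries lay above the 22 °C libraries at ZT1 and both lay below them at ZT6. The tables of the times were taken as normalized separately, and the difference between them was not tested.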

How the results depend on the processing

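Across the alternatives, 0 of 33 called member results changed sign, which was fixed in advance for most of them. Trend, filter, fold threshold and the choice of groups fitted leave each LFC as it is. The libraries of every called pair of groups did not overlap, nor did the paired differences behind the called interactions. Leaving out or weighting libraries could therefore not turn a sign. Only the replicate block and median centring could do so. At ZT1 16 of 18 calls and at ZT6 3 of 15 were kept under every alternative other than leaving out the 4 libraries that stand apart. Of the uncalled results, 16 changed sign at least once, with an LFC of at most 0.37 in size. In members called, fitting only the groups compared left 1 for WT heat at ZT6 and 0 for WT cold, *prr7prr9* cold, *prr7prr9* against WT at each temperature and the ZT6 cold interaction, with 2 residual degrees of freedom for pairs of groups in place of 6. The same comparisons then called 614, 41, 0, 0, 0, 0 and 0 genes in place of 4487, 1848, 1122, 89, 45, 44 and 26. Leaving out the 4 libraries that stand apart, chosen after seeing the data, left 1 member for WT heat at ZT6 and 0 for WT cold, both *prr7prr9* responses, all *prr7prr9* differences from WT and the cold interaction (1057, 0, 40 and 0 genes called for the first 4, and 0 for the rest). The groups of WT cold at ZT6 hold none of the 4 libraries, so the LFC values of that comparison could not change. Without a filter, *prr7prr9* cold gave 1 member (707 genes), as *PRR3* lost its call (−1.78, adjusted p = 0.076), and WT cold at ZT6 gave 2, as *TOC1* did (−1.31, adjusted p = 0.063). *PRR7* lost its heat call in *prr7prr9* with only the groups compared (1.29, adjusted p = 0.12), which left 2 members in place of 3, and its call in *cca1lhy* against WT at 37 °C with quality weights (0.99, adjusted p = 0.0043). With no fold threshold, *cca1lhy* heat and cold at ZT1 gave 2 members each (7952 and 1488 genes), and WT heat at ZT1 8433 genes in place of 3414.

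Other gene counts that moved over 1.5 times were, with no fold threshold, 1048 and 2848 for WT cold at ZT1 and ZT6 and 1086, 1646 and 769 for *cca1lhy* against WT at 22, 37 and 10 °C. With only the groups compared they were 293 and 292 for *cca1lhy* against WT at 22 and 37 °C, 134 and 7 for its heat and cold interactions, and 1952 for *prr7prr9* heat. With no filter they were 149 and 10 for the *cca1lhy* interactions, 22 and 91 for the *prr7prr9* heat and cold interactions, and 27 and 26 for *prr7prr9* against WT at 37 and 10 °C. With quality weights they were 20 for the *cca1lhy* cold interaction, 146 for *prr7prr9* against WT at 10 °C and 0 for the *prr7prr9* heat interaction. With no trend they were 25 for *prr7prr9* against WT at 10 °C and 16 and 0 for the *prr7prr9* cold and heat interactions. The causes were not tested.

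With the replicate block at ZT6, *prr7prr9* cold gave 1 member (693 genes), as *PRR3* lost its call (−1.36, adjusted p = 0.068). *TOC1* lost its WT cold call (−0.92, adjusted p = 0.094) and *PRR3* gained one for WT heat (−1.14, adjusted p = 0.019). The block called 17 genes for *prr7prr9* against WT at 10 °C and 13 and 0 for the *prr7prr9* cold and heat interactions. It changed no other member call. Same-numbered libraries correlated at a median of 0.018 (16 of 55 pairs over 0.1) at ZT1 and 0.12 (12 of 22) at ZT6. The ZT6 pairs hold repeated values, since deviations within a pair of libraries mirror each other, so the 12 are not all separate. For *prr7prr9* against WT at 37 °C the numbers correlated at −0.398, and crossing them called 26 genes and 1 member against 32 genes and 1 member as numbered.

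Leaving out 1 library at a time gave, in members called at ZT1, 3 to 3 for WT heat and cold, 0 to 1 and 1 to 2 for *cca1lhy* heat and cold, 4 to 5, 2 to 3 and 3 to 3 for *cca1lhy* against WT at 22, 37 and 10 °C, and 1 to 1 and 0 to 0 for its heat and cold interactions. At ZT6 it gave 2 to 2 and 2 to 3 for WT heat and cold, 2 to 3 and 1 to 2 for *prr7prr9* heat and cold, 1 to 3, 1 to 1 and 2 to 2 for *prr7prr9* against WT, and 0 to 1 and 0 to 2 for its interactions. In genes called, leaving out 1 library moved the count over 1.5 times for the *cca1lhy* heat interaction (140 to 313, 235 with all libraries) and cold interaction (2 to 5, 3 with all). At ZT6 it did so for WT cold (1136 to 1451, 1848 with all), *prr7prr9* cold (368 to 578, 1122 with all), *prr7prr9* against WT at 22 °C (45 to 78, 89 with all), 37 °C (24 to 379, 45 with all) and 10 °C (4 to 20, 44 with all), and its heat (0 to 51, 1 with all) and cold interactions (6 to 24, 26 with all). The 379 and the 51 are without *prr7prr9* 37 °C replicate 2. A fit without a library has fewer residual degrees of freedom. Where a group then held 1 library, it was assumed to vary like the others. The depth at ZT1 limits *PRR3* and, in WT, *PRR5* and *TOC1*.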
